A study of Homo sapiens with 8 samples.

Results

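Microexons, taken here as cassette exons of at most 30 nt, were examined in U2OS cells, a human osteosarcoma line, after depletion of CHERP (calcium homeostasis endoplasmic reticulum protein), a nuclear protein that associates with the U2 small nuclear ribonucleoprotein (snRNP) of the spliceosome. The members were all skipped exons of that length in the deposited splicing tables, each distinct exon counted once through its event with the most reads in whole cells. There were 828 such exons in 733 genes, or 1.57% of 52810 distinct skipped exons. Of these 757 were listed for whole cells, 525 for the cytoplasm, and 454 for both. They lay in 820 separate stretches of the genome, and 8 of these stretches held members that overlap each other.

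All cells received 20 nM siRNA for 48 h, either against EGFP, which serves as the control, or the siRNA named CHERP#2. RNA was taken from whole cells or from the cytoplasmic fraction, which gave 4 groups of 2 libraries and 8 libraries in all. A single siRNA against CHERP was sequenced, so its effect and the loss of CHERP cannot be told apart in these libraries. The question addressed was which cassette exons are included or skipped when CHERP is depleted, and whether the change is also present in cytoplasmic RNA.

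Splicing of an exon requires that its 3′ and 5′ splice sites are recognised together, commonly across the exon by U2AF at the upstream polypyrimidine tract, the U2 snRNP at the branch point and the U1 snRNP at the downstream 5′ splice site. An exon of a few codons leaves little room for both complexes and for exonic enhancers, and recognition then leans on the flanking intron. Microexons are best known from neurons, where SRRM4 and its partners drive their inclusion, and many of them keep the reading frame and alter a few residues in proteins of vesicle transport, the cytoskeleton and cell adhesion.

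The sequences of a selection of the called microexons, those with the larger changes in each direction and 2 with many reads that were called in both RNA fractions (FLNA and AP2M1), are given below in the sense of the transcript, read 5′ to 3′ from GRCh37 (hg19). Capitals mark the exon, and lower case marks the last 40 bases of the upstream intron and the first 10 bases of the downstream intron. The exons more included with CHERP siRNA are shown first: KIF3A (chr5:132042143-132042151, minus strand), ACACA (chr17:35567381-35567404, minus strand), MON2 (chr12:62959794-62959811, plus strand), SNX14 (chr6:86248556-86248582, minus strand), SENP6 (chr6:76350400-76350420, plus strand and chr6:76350403-76350420, plus strand), CSNK1G3 (chr5:122941033-122941056, plus strand), PPP3CB (chr10:75199630-75199659, minus strand), VPS29 (chr12:110937340-110937351, minus strand), FLNA (chrX:153585619-153585642, minus strand) and AP2M1 (chr3:183898433-183898438, plus strand).
KIF3A, 9 nt: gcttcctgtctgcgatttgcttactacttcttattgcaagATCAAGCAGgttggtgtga
ACACA, 24 nt: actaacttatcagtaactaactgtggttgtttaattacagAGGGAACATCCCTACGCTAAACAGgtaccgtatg
MON2, 18 nt: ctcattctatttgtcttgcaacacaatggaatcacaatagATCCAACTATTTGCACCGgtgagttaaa
SNX14, 27 nt: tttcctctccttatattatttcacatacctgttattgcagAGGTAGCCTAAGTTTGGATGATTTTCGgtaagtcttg
SENP6, 21 nt: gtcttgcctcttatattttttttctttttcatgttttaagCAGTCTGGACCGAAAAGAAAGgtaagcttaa
SENP6, 18 nt: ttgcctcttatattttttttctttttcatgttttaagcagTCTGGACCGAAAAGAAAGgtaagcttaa
CSNK1G3, 24 nt: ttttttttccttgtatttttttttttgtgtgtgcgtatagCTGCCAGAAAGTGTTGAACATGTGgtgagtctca
PPP3CB, 30 nt: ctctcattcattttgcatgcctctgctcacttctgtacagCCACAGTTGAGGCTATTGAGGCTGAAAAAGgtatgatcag
VPS29, 12 nt: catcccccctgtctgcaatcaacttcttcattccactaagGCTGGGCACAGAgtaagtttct
FLNA, 24 nt: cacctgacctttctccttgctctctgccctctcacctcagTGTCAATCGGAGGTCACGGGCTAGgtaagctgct
AP2M1, 6 nt: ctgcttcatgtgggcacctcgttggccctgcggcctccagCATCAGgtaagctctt

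The exons less included with CHERP siRNA are shown for comparison: NCAM1 (chr11:113092018-113092047, plus strand), PICALM (chr11:85689113-85689136, minus strand), RHOC (chr1:113247722-113247745, minus strand) and PTS (chr11:112100931-112100953, plus strand).
NCAM1, 30 nt: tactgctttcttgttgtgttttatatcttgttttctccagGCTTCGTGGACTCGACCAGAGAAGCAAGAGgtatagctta
PICALM, 24 nt: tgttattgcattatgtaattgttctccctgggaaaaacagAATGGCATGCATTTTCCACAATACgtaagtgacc
RHOC, 24 nt: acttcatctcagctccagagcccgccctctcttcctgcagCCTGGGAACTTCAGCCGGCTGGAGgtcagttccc
PTS, 23 nt: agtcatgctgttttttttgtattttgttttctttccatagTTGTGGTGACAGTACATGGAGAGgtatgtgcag
By GENCODE annotation all of these exons are coding, except the RHOC exon, which lies in the 5′ UTR. The SENP6 exons are alternative forms of 1 exon whose 3′ splice sites are 3 nt apart, so the longer form starts with the bases CAG that end the intron before the shorter form.

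The lengths of the microexons ran from 2 to 30 nt with a median of 24 nt. The length was a multiple of 3 for 510 of 828 members (61.6%), compared with 40.6% of all skipped exons. Among exons of 31 to 50 nt the share was 40.01%. The most frequent lengths were 30 nt (108 exons), 27 nt (103 exons) and 24 nt (83 exons), whereas 28 nt and 29 nt had 42 and 43 exons. A coding position was annotated for 78.7% of the microexons and for 72.7% of all skipped exons.

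**Figure D1:**
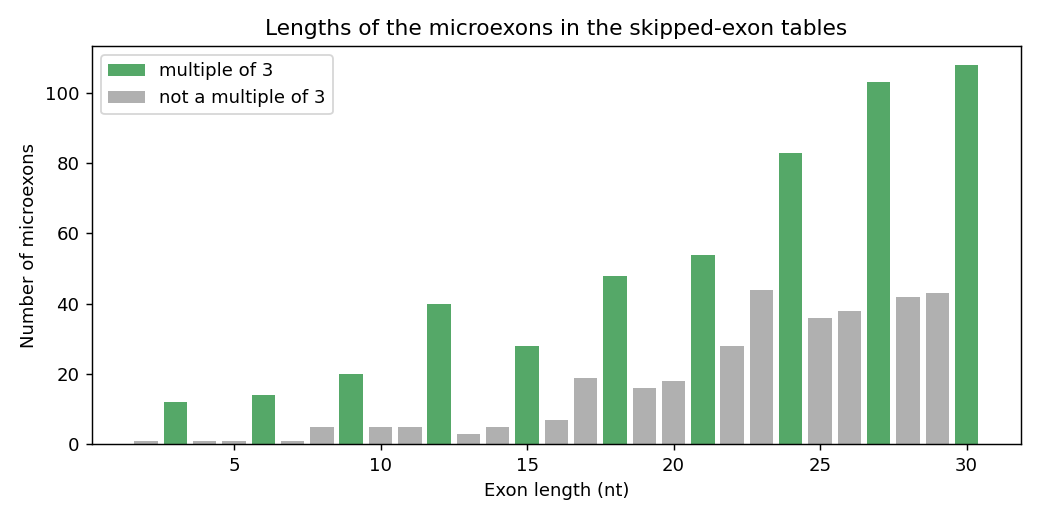
The bars give the number of microexons at each exon length in nt, with lengths that are multiples of 3 in green and other lengths in grey. Green bars stand above their grey neighbours along the whole axis, as at 27 nt with 103 exons against 38 at 26 nt and 42 at 28 nt.

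The introns around microexons were set beside those around all skipped exons. Within the 37 bases that end 3 bases before the exon, pyrimidines made up a median of 70.3% (quartiles 62.2% and 75.7%) at microexons and 64.9% (56.8% and 70.3%) at all skipped exons. Splice sites were scored by log odds (log2) of base frequencies over all skipped exons, which gave medians of 9.97 for the 3′ splice site of microexons against 9.27 over all exons, and 8.77 against 7.94 for the 5′ splice site. Exons of 31 to 50 nt had median scores of 10.5 and 8.46, so the higher 3′ splice site score was not particular to microexons. Their median pyrimidine share was 64.9%. The nearest AG upstream of the 3′ splice site AG lay at a median of 35.5 nt at microexons and 30 nt at all exons, among those with an AG within 60 nt. The letters TGC, searched in the sense of the transcript in the last 30 bases of the upstream intron, were present at 44.4% of microexons and 37.7% of all skipped exons. Upstream introns were shorter at microexons, with a median of 1522.5 nt against 2243 nt, and downstream introns had medians of 1397 nt and 2074 nt. These shares describe the exons that the tables list, and no test was made.

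The knockdown was checked first. Reads on the splicing events of CHERP were 103 and 77 in the whole-cell libraries with EGFP siRNA against 3 and 10 with CHERP siRNA, a log2 fold change of -3.46 (limma, adjusted p = 0.00146). The size of this fold change depended on the settings, at -1.98 with a pseudocount of 0.1, -2.61 without the CHERP library listed first and -4.30 without the one listed second, and it was called in each. In the cytoplasm the reads were 31 and 21 against 3 and 4, under the mean of 20 reads per library required for the test. In bulk RNA, fewer cells with a transcript and less of it per cell cannot be told apart. The libraries held 19287081 to 23480646 reads on skipped-exon events in whole cells and 3826409 to 4685633 in the cytoplasm, of which 146811 to 190143 and 38832 to 51550 fell on microexon events. The median microexon had a mean of 45.5 reads per library in whole cells and 21.0 in the cytoplasm. The markers of the cell type were checked over the genes with splicing events. Of 7 mesenchymal and bone markers 3 had reads in whole cells. VIM, a mesenchymal filament, had 57402 to 80880 reads per whole-cell library, RUNX2, a bone-lineage factor, went from 16 and 18 reads to 0 and 3 under CHERP siRNA, COL5A2 had 16 to 18, and SPARC, COL1A1, COL1A2 and ALPL had no whole-cell event. Of 7 neuronal markers 3 had reads in whole cells, with 28 and 18 reads in sum under EGFP siRNA and 84 and 62 under CHERP siRNA, and SRRM4, STMN2 and SYN1 were among those with no event. Of 4 epithelial markers 2 had reads, 2 and 5 in sum with EGFP siRNA against 22 and 17 with CHERP siRNA, while ESRP1 and EPCAM had no event. The part of these genes in the splicing results was not tested.

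The inclusion level of an exon was the share of length-scaled reads that support inclusion, from 0 to 1. With EGFP siRNA, microexons were included less than other exons and far more unevenly. Over the 517 members averaging 20 or more reads per library in whole cells, the median inclusion level was 0.797 (quartiles 0.0282 and 0.985), whereas it was 0.986 (0.915 and 0.999) over all 39584 skipped exons at that depth. The level was under 0.1 for 161 microexons (31.1%, against 11.2% of all exons), between 0.1 and 0.9 for 127 (24.6%, against 12.3%) and over 0.9 for 229 (44.3%, against 76.5%). The median was 0.808 and 0.767 in the EGFP libraries and 0.871 and 0.868 in the CHERP libraries, so the medians of the siRNAs did not overlap. In the cytoplasm, with 269 members, it was 0.838 and 0.821 against 0.896 and 0.867, again without overlap.

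Microexons of 25 to 30 nt were included the most of the length classes. In whole cells with EGFP siRNA the median level was 0.505 over 35 exons of 3 to 9 nt, 0.198 over 91 exons of 10 to 18 nt, 0.355 over 141 exons of 19 to 24 nt and 0.933 over 250 exons of 25 to 30 nt. Lengths that are multiples of 3 had a median of 0.464 over 316 exons, and other lengths 0.958 over 201 exons. Microexons in the 5′ UTR (26 exons) and in non-coding or decay transcripts (64 exons) had medians of 0.102 and 0.020, and coding microexons (410 exons) 0.902.

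In whole cells 23 microexons were more included with CHERP siRNA and 4 less included, of 757 tested, by a quasi-binomial test of inclusion and skipping reads adjusted over all skipped-exon events at a threshold of 0.05. Higher calls made up 3.04% of the microexons and 0.455% of all 63977 skipped-exon events, and lower calls 0.528% and 0.438%. With each distinct exon counted once, as for the microexons, calls made up 0.507% (higher) and 0.513% (lower) of all 48505 skipped exons. The lower share of microexons was thus near that of all exons. The libraries of the siRNAs did not overlap for any of the 27 called exons, which lay in 26 genes. This was also a condition for naming an exon by its change, so it adds no support to the named exons. The unadjusted p was under 0.05 for 95 of the 757 microexons, and with no share over all events beside it nothing is read from this count. The length was a multiple of 3 for 14 of the 23 exons with higher inclusion (60.9%) and for 3 of the 4 with lower inclusion. It was so for 61.6% of all 828 microexons, near the share among the increases.

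The largest increase was in a 9-nt exon of KIF3A, a motor subunit of kinesin-2 that carries cargo along cilia and axons. Its inclusion level was 0.0788 and 0.147 with EGFP siRNA against 0.699 and 0.758 with CHERP siRNA, or 0.113 ± 0.0483 against 0.729 ± 0.0421 (SD, n = 2 libraries each), with an adjusted p of 9.8e-11 by the quasi-binomial test. Its inclusion reads were 7 and 11 with EGFP siRNA against 69 and 70 with CHERP siRNA, and its skipping reads 77 and 60 against 28 and 21. The exon thus went from mostly skipped to mostly included. A 24-nt exon of ACACA, acetyl-CoA carboxylase, the enzyme of the committed step of fatty acid synthesis, went from 0.337 and 0.238 to 0.861 and 0.894 (adjusted p = 7.0e-11, quasi-binomial test). An 18-nt exon of MON2, a regulator of traffic between Golgi and endosomes, went from 0.171 and 0.212 to 0.80 and 0.727 (adjusted p = 2.6e-06, quasi-binomial test). For all 3 genes the lowest CHERP library lay more than 0.5 above the highest EGFP library on the inclusion scale.

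A second set was mostly skipped with EGFP siRNA and included in near equal measure with CHERP siRNA. A 27-nt exon of SNX14, a sorting nexin of the endoplasmic reticulum and lipid droplets, went from 0.130 and 0.0839 to 0.598 and 0.541. A 24-nt exon of CSNK1G3, a membrane-bound casein kinase, went from 0.144 and 0.116 to 0.543 and 0.522. In SENP6, a protease that trims SUMO chains, the 21-nt form went from 0.181 and 0.142 to 0.556 and 0.506 and the 18-nt form from 0.203 and 0.150 to 0.609 and 0.562. Both SENP6 forms are measured against the same skipping reads and are not independent. The level of each form leaves out reads that support only the other form. Inclusion of the SENP6 exon in either form may thus be higher than these levels. The adjusted p from the quasi-binomial test was 8.0e-12 for SNX14, 1.1e-05 for CSNK1G3, and 1.6e-05 and 5.0e-07 for the longer and shorter SENP6 form.

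Other exons were already included in a large share of transcripts with EGFP siRNA and rose further. A 30-nt exon of PPP3CB, a catalytic subunit of calcineurin, went from 0.562 and 0.580 to 0.958 and 0.920. A 12-nt exon of VPS29, a subunit of the retromer that recycles cargo from endosomes, went from 0.556 and 0.508 to 0.897 and 0.818. An 18-nt exon of TRAPPC13, a subunit of a vesicle tethering complex, went from 0.494 and 0.564 to 0.878 and 0.802. The rise was called in each (adjusted p = 0.0024, 5.8e-12 and 0.027 by the quasi-binomial test). DNAJC19 and DECR1, both genes of mitochondrial proteins, each held a 25-nt exon with a wide spread between the EGFP libraries. The DNAJC19 exon went from 0.576 and 0.404 to 0.833 and 0.729, and the DECR1 exon, annotated in a non-coding or decay transcript, from 0.805 and 0.496 to 0.942 and 0.971. Their adjusted p of 0.041 and 0.012 by the quasi-binomial test rose to 0.20 and 0.26 when each exon's own spread was used where it was the larger.

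**Figure D2:**
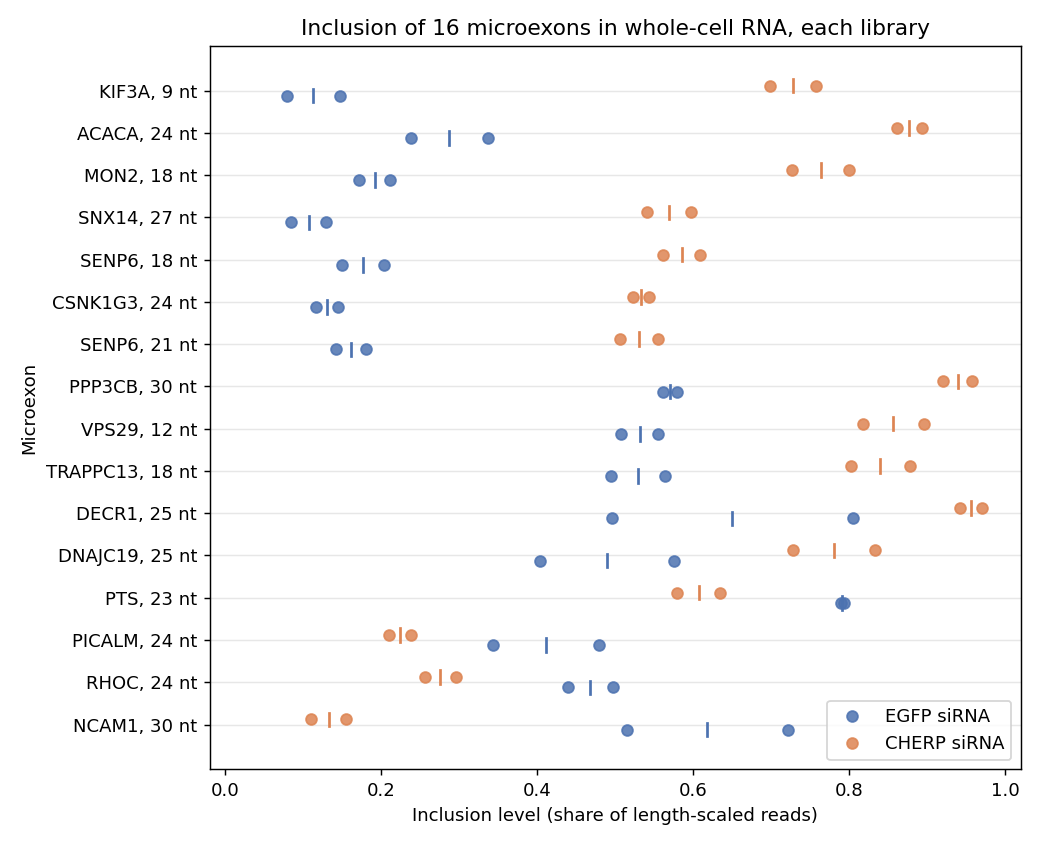
Points give the inclusion level of each whole-cell library (x axis, share of length-scaled reads) for the 12 microexons with the largest called increases and the 4 called decreases (y axis), blue for EGFP siRNA and orange for CHERP siRNA, and short bars give the mean of 2 libraries. Only exons whose libraries do not overlap were eligible for a row, and DECR1 shows the widest spread, with EGFP libraries at 0.496 and 0.805.

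Smaller changes were called in exons with many reads. A 24-nt exon of FLNA, a crosslinker of actin filaments, went from 0.656 and 0.706 to 0.837 and 0.851 (adjusted p = 3.8e-09, quasi-binomial test). A 6-nt exon of AP2M1, the medium subunit of the clathrin adaptor AP2, went from 0.656 and 0.653 to 0.785 and 0.764 (adjusted p = 2.0e-07, quasi-binomial test). The other called increases were in RPS24, HNRNPC, GPBP1, NUPL1, MAPK1IP1L, MED6, GAS5, IMMT and RPL41, listed here after their values were seen. Among these the 22-nt exon of RPS24, a protein of the small ribosomal subunit, had the most reads, with a mean of 4749.5 per library, and went from 0.107 and 0.1007 to 0.245 and 0.251. RPS24, RPL41 and HNRNPC belong to multicopy or pseudogene-rich families, so their reads may be shared with copies and their levels are uncertain. The differences of the 23 increases ranged from 0.0357 in RPL41 to 0.616 in KIF3A.

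Inclusion fell in 4 exons, by the most in NCAM1. The 30-nt exon of NCAM1, the neural cell adhesion molecule, is the exon known as VASE in its immunoglobulin domain, and its inclusion level went from 0.516 and 0.721 to 0.110 and 0.155, on a mean of 34.75 reads per library (adjusted p = 0.014, quasi-binomial test). A 24-nt exon of RHOC, a small GTPase of actin remodelling, went from 0.439 and 0.497 to 0.256 and 0.295. A 24-nt exon of PICALM, a clathrin assembly protein, went from 0.344 and 0.479 to 0.238 and 0.210. A 23-nt exon of PTS, a synthase of tetrahydrobiopterin, went from 0.789 and 0.794 to 0.635 and 0.580. The adjusted p by the quasi-binomial test was 2.4e-04 for RHOC, 0.0093 for PICALM and 0.0075 for PTS. The PICALM value was 0.059 when its own, larger spread was used.

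These calls rest on 2 libraries per group and on a dispersion shared by all events of like depth. The fit gave an event's own spread no weight. A limma test on log2 odds called none of the microexons in whole cells. By that test 94 of 757 microexons had an unadjusted p under 0.05, 73 of them higher, against 5518 of all 63977 events. Of the 27 calls 12 were also made without each library in turn, those of KIF3A, ACACA, MON2, SNX14, CSNK1G3, both SENP6 forms, VPS29, FLNA, AP2M1, HNRNPC and RPS24. Without 1 of the libraries RHOC, PPP3CB, PICALM, PTS, NCAM1, DNAJC19, TRAPPC13, DECR1 and 7 smaller increases were not called, and the calls numbered 13 higher without either CHERP library, and none lower without the CHERP library listed first or the EGFP library listed second, and 1 lower without the CHERP library listed second.

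**Figure D3:**
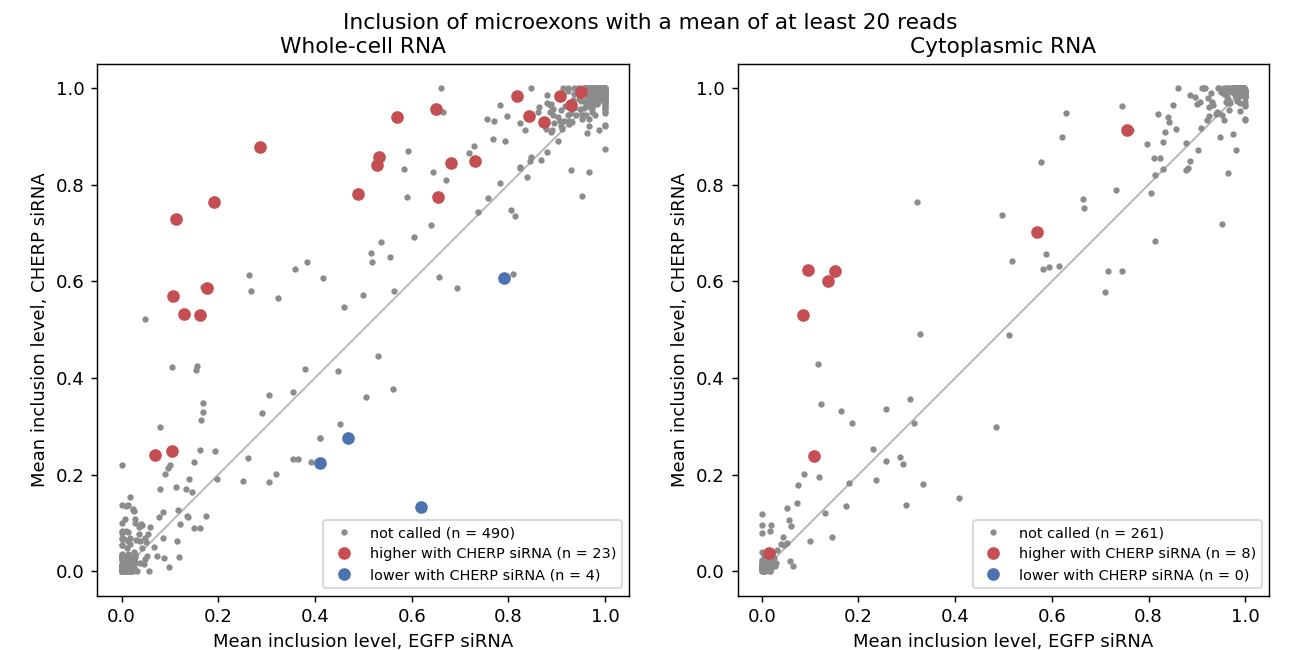
Each point is a microexon averaging 20 or more reads per library, at its mean inclusion level with EGFP siRNA (x axis) and CHERP siRNA (y axis), in whole cells (left) and cytoplasm (right), with called exons in red (higher) and blue (lower) and a line at equal levels. Called exons lie mostly above the line, 23 against 4 in whole cells and 8 against 0 in the cytoplasm.

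Among all microexons, called or not, upward differences outnumbered downward ones. In whole cells 64 of the 517 members with at least 20 reads (12.4%) differed by at least 0.1 upwards and 20 (3.87%) downwards, compared with 3.46% and 4.02% of all skipped exons at that depth. The libraries of the siRNAs were apart with CHERP higher for 154 members (29.8%, against 13.4% of all exons) and with CHERP lower for 46 (8.90%, against 14.1%). Exons of 31 to 50 nt at that depth lay between for upward shares, with 24.3% apart upwards and 10.0% downwards. Of them 6.89% differed by at least 0.1 upwards and 2.49% downwards. The median difference was 0.00657 over the microexons and 1.2e-04 over all exons, and its quartiles were -0.00640 and 0.0381 against -0.0125 and 0.0124. Most microexons were thus within a few hundredths of their level with EGFP siRNA, and the larger differences leaned upwards. Of the 127 microexons at intermediate levels with EGFP siRNA, 51 differed by at least 0.1 upwards and 16 downwards, and the median difference was 0.0768. Of the 161 under 0.1, 13 differed by at least 0.1 upwards, and none of the 229 over 0.9 could do so.

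The share of exons called with higher inclusion was larger the shorter the exon, up to 300 nt. Among exons with at least 20 reads in whole cells, higher calls made up 4.45% of microexons (23 of 517), 2.01% of exons of 31 to 50 nt (38 of 1886), 0.648% of 51 to 100 nt (84 of 12957), 0.338% of exons above 100 and up to 300 nt (76 of 22516) and 1.46% of longer exons (25 of 1708). Lower calls made up 0.774%, 0.530%, 0.533%, 0.644% and 1.23% of the same classes. Exons at levels of 0.1 to 0.9 with EGFP siRNA made up 24.6%, 17.2%, 11.9%, 11.4% and 19.2% of them, a share that also fell with length up to 300 nt. Of the 23 called increases in microexons 19 started at such levels. Length and starting level thus go together, and the part of either was not tested. Read depth ran the other way, with a median of mean reads per library of 45.5 for microexons, 64.6 for 31 to 50 nt, 87.5 for 51 to 100 nt and 107.25 for the next class. At the length limit itself, 98 exons of 30 nt had 1 higher and 1 lower call and a median difference of 0.00676 over 75 exons with at least 20 reads, and 74 exons of 31 nt had 2 higher and no lower calls and 0.00802 over 51 exons.

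**Figure D4:**
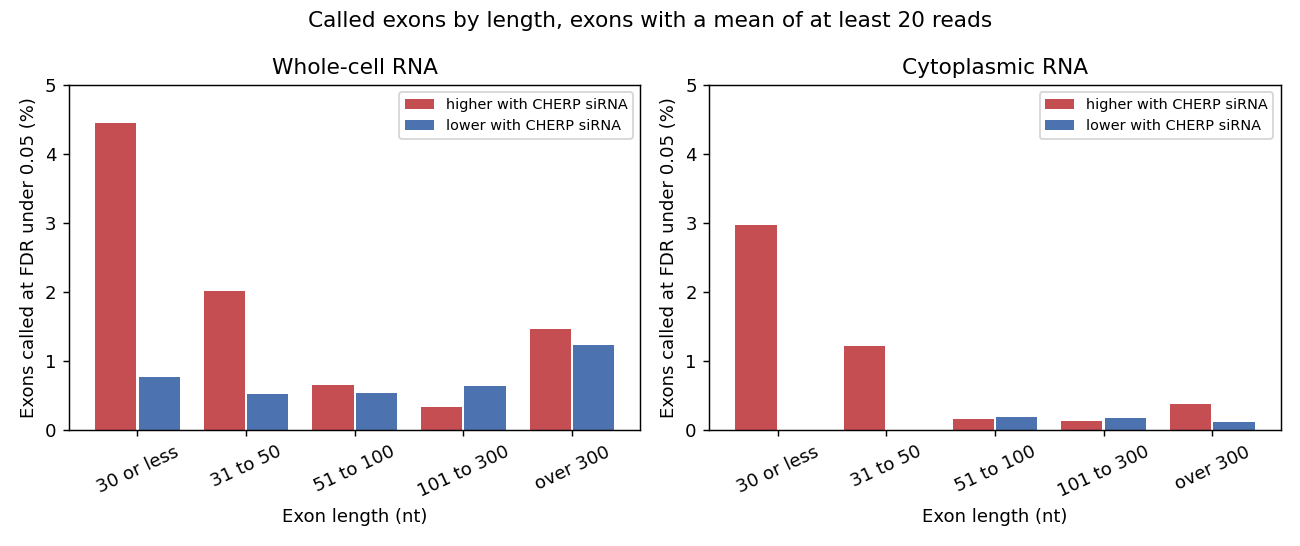
Bars give the percent of exons with at least 20 reads that were called with higher (red) or lower (blue) inclusion, by exon length class in nt (x axis), in whole cells (left) and cytoplasm (right). The red bar is tallest at 30 nt or less, at 4.45% and 2.97%, and the blue bars stay under 1.3% in every class.

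Among the microexons, the called increases were spread over the lengths, with 2 of 35 at 3 to 9 nt, 5 of 91 at 10 to 18 nt, 9 of 141 at 19 to 24 nt and 7 of 250 at 25 to 30 nt. Of the shortest exons with enough reads, of 3 nt, the 3 with the most reads lay in VDAC3, ASXL1 and CLASP1, and none was called. The exon of VDAC3, a channel of the mitochondrial outer membrane, was nearly always skipped, at 0.0064 and 0.0081 with EGFP siRNA against 0.0064 and 0.0051 with CHERP siRNA. The exon of CLASP1, a microtubule plus-end protein, was at 0.980 and 0.865 against 0.985 and 1.00, and that of ASXL1, a chromatin regulator, at 0.770 and 0.768 against 0.882 and 0.907. The ASXL1 libraries were apart, and the CLASP1 libraries too, but the adjusted p was 0.78 for both by the quasi-binomial test.

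The flanking sequence of the called microexons was compared with that of the 490 microexons of at least 20 reads that were not called, as a description. The groups also differ in starting level. With EGFP siRNA, 19 of the 23 increases were at levels of 0.1 to 0.9, against 24.6% of all 517 microexons at that depth. SENP6 counts more than once through its overlapping forms. The part of starting level in these features was not tested. The 23 with higher inclusion had a median 3′ splice site score of 7.33 (quartiles 6.32 and 10.6), against 10.4 (6.66 and 13.1) in those not called. Among them the MON2 exon scored -2.37 and the AP2M1 exon 2.39. The 5′ splice site score was 8.83 against 8.68, and the pyrimidine share 75.7% against 70.3%. Upstream introns had a median of 3858 nt against 1466.5 nt, and downstream introns 1913 nt against 1305 nt. The letters TGC were within 30 bases upstream of 10 of the 23 (43.5%), against 43.5% of those not called. The 4 exons with lower inclusion had a median 3′ splice site score of 11.1 and a 5′ splice site score of 6.84, with the PICALM exon at 0.163 for its 3′ splice site.

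In the cytoplasm 8 microexons were called higher and none lower, of 525 tested by the same quasi-binomial test at an adjusted p under 0.05. Higher calls made up 1.52% of the microexons and 0.147% of all 31924 skipped-exon events, and lower calls made up 0.107% of all events. With each distinct exon counted once, the shares over all 27750 skipped exons were 0.155% (higher) and 0.112% (lower). An unadjusted p under 0.05 was found for 40 of the 525 microexons, and with no share over all events beside it nothing is read from this count. The limma test called 3 higher, SNX14, DNAJC19 and TRAPPC13, of which the last 2 were not called by the quasi-binomial test. By limma the unadjusted p was under 0.05 for 76 microexons and for 2962 of all 31924 events. The SNX14 exon was at 0.173 and 0.0193 with EGFP siRNA against 0.511 and 0.735 with CHERP siRNA, on a mean of 24.25 reads per library. The CSNK1G3 exon was at 0.116 and 0.0528 against 0.632 and 0.429, and the SENP6 forms at 0.195 and 0.0794 against 0.556 and 0.644 for 21 nt and at 0.184 and 0.118 against 0.616 and 0.626 for 18 nt. The siRNAs were apart in each of these exons, which was also a condition for naming them.

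The FLNA and AP2M1 exons were measured in the cytoplasm on 524 and 863 reads per library. FLNA was at 0.746 and 0.766 with EGFP siRNA against 0.911 and 0.915 with CHERP siRNA (adjusted p = 1.2e-07, quasi-binomial test), and AP2M1 was at 0.553 and 0.584 against 0.713 and 0.691 (adjusted p = 2.8e-06, quasi-binomial test). The other 2 called exons were overlapping forms in RPS24, named here after their values were seen. Its 22-nt form was at 0.114 and 0.1001 against 0.247 and 0.229, close to its whole-cell levels. Its 25-nt form was at 0.0155 and 0.0150 against 0.0407 and 0.0360, whereas in whole cells it had almost no inclusion reads and levels from 0 to 0.0002. The 25-nt form had a 3′ splice site score of -20.4, against a median of 9.97 over the microexons, so its level is uncertain. Both RPS24 forms are measured against the same skipping reads and are not independent. The 8 calls lay in 6 genes. The adjusted p from the quasi-binomial test was 0.0017 for SNX14, 0.030 for CSNK1G3, and 0.0027 and 0.0026 for the SENP6 forms. These 4 calls were lost without the EGFP library listed second, which left 4 of 8, and the SNX14 p rose to 0.21 when its own spread was used.

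Most increases called in whole cells had the same direction in the cytoplasm. Of the 23 exons 21 were measured there and 20 differed upwards, while NUPL1 and DECR1 had no event in the cytoplasmic table. For 16 of the 21 the same event was in both tables, whereas GAS5, HNRNPC, MED6, VPS29 and PPP3CB were measured in the cytoplasm through an event with other flanking exons, so that their levels in the fractions are not the same measure. With at least 20 cytoplasmic reads the count was 15 of 16, of which 14 had libraries apart and 7 were called. At that depth the cytoplasmic libraries were apart upwards for 26.0% of all microexons and 11.7% of all skipped exons. The exception to the upward direction was HNRNPC, whose 26-nt exon lies in the 5′ UTR. It was at 1.00 and 0.977 with EGFP siRNA against 0.965 and 0.973 with CHERP siRNA in the cytoplasm, on a mean of 60.5 reads per library, and at 0.736 and 0.727 against 0.854 and 0.845 in whole cells, through its other event with a mean of 3294.25 reads. The median difference of the 16 exons with at least 20 cytoplasmic reads, 4 of them with a different event in each fraction, was 0.153 in the cytoplasm and 0.153 in whole cells. Among exons with few cytoplasmic reads, KIF3A was at 0.283 and 0.151 against 0.728 and 0.597 and VPS29 at 0.866 and 0.596 against 0.857 and 0.720, so that VPS29, through its other event, overlapped on 16 reads per library. ACACA was at 0.283 and 0.361 against 0.693 and 0.836 and PPP3CB at 0.662 and 0.596 against 0.961 and 0.934, and both were apart without being called.

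All 4 decreases had the same direction in the cytoplasm, and none was called. RHOC was measured there through an event with other flanking exons. NCAM1 was at 0.515 and 0.541 with EGFP siRNA against 0.191 and 0 with CHERP siRNA on a mean of 6.25 reads per library. RHOC was at 0.741 and 0.679 against 0.484 and 0.673, PICALM at 0.379 and 0.589 against 0.301 and 0.295, and PTS at 0.685 and 0.745 against 0.649 and 0.595. The libraries were apart in each, by a small margin in RHOC and PTS. Among exons with at least 20 cytoplasmic reads, libraries were apart downwards for 10.0% of microexons and 13.5% of all skipped exons.

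Whether the effect of CHERP siRNA differed between the fractions was tested for the 414 microexons with the same event in both tables, among 23893 events. No microexon and no other event was called for this interaction by the quasi-binomial test at an adjusted p under 0.05. The unadjusted p was under 0.05 for 9 microexons (2.17%) and for 690 of all events (2.89%). With 2 libraries per group and a median of 21.0 reads per microexon in the cytoplasm, a difference between fractions could be missed. The lack of calls therefore does not show that the effects were equal. Over 210 microexons with at least 20 reads in both fractions, the median of cytoplasmic minus whole-cell inclusion was -0.00171 with EGFP siRNA and 7.98e-04 with CHERP siRNA.

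**Figure D5:**
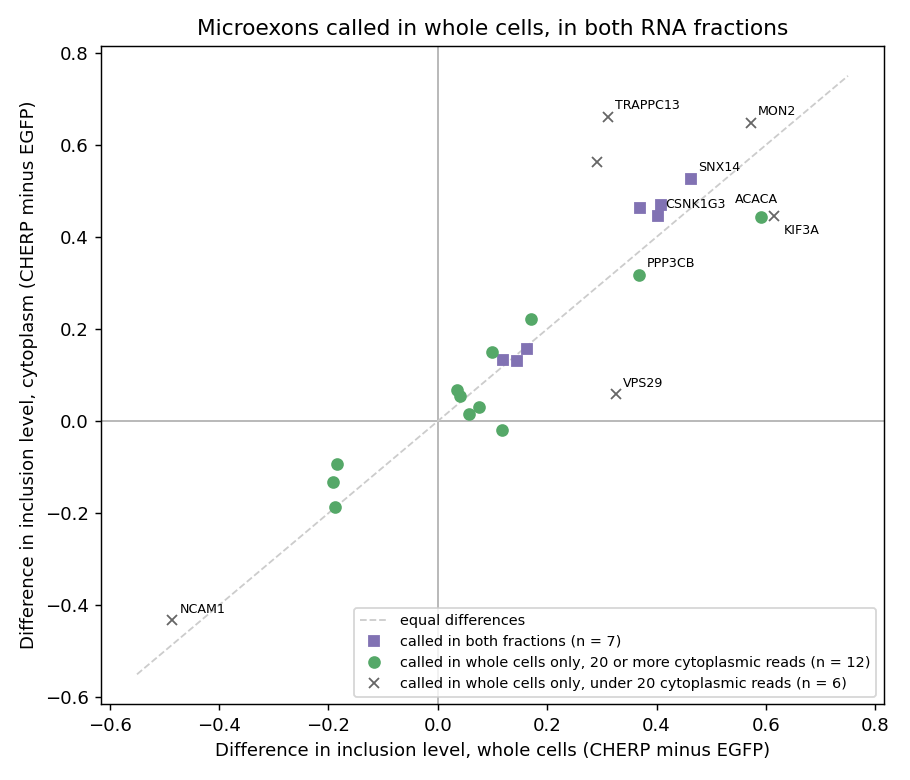
Each point is a microexon called in whole cells and measured in the cytoplasm, at its difference in inclusion level (CHERP minus EGFP siRNA) in whole cells (x axis) and cytoplasm (y axis), with squares for exons called in both fractions and crosses for exons under 20 cytoplasmic reads. Most points lie near the dashed line of equal differences, and VPS29 (0.325 and 0.0583), TRAPPC13 (0.311 and 0.661) and DNAJC19 (0.291 and 0.562), all crosses, lie away from it. The differences of VPS29, GAS5, HNRNPC, MED6, PPP3CB and RHOC come from a different event in each fraction.

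Host genes were then grouped by lists of genes with known roles. Of 40 genes known for neuronal microexons 23 had a member here, with 33 exons, and in whole cells 30 were tested, of which none was called higher and 1, in NCAM1, lower, where calls made up 3.04% (higher) and 0.528% (lower) of all microexons and 0.455% and 0.438% of all skipped-exon events. These exons were mostly skipped in U2OS cells, with a median inclusion level of 0.0250 over 27 exons with at least 20 reads and a median difference of 0.00793. Examples are the 12-nt exon of L1CAM, an adhesion protein of axons, at 0.028 and 0.022 with EGFP siRNA against 0.013 and 0.040 with CHERP siRNA, and the 15-nt exon of ABI1, a subunit of the WAVE complex, at 0.016 and 0.012 against 0.032 and 0.021. A 24-nt exon of CLASP1 was at 0.159 and 0.153 against 0.375 and 0.474, apart but not called (adjusted p = 0.28, quasi-binomial test).

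Of 43 membrane traffic genes 10 had a member, with 14 exons, and 2 of the 12 tested in whole cells were called higher (SNX14 and AP2M1) and 1 lower (PICALM), beside the same shares of 3.04% and 0.528% over all microexons. In the cytoplasm 2 of 12 were called higher, SNX14 and AP2M1 again, beside 1.52% of all microexons and 0.147% of all events. With so few exons, nothing particular to this list is read from these counts. The median difference in whole cells was 0.0535 over 11 exons with at least 20 reads. It was 0.00657 over all microexons and 1.2e-04 over all skipped exons at that depth. The median level of the 11 exons with EGFP siRNA was 0.411, and microexons at levels of 0.1 to 0.9 had a median difference of 0.0768. Of 59 cytoskeleton and adhesion genes 19 had a member, with 31 exons, and FLNA was the only call, in both fractions, with a median difference of 0.00883 over 25 exons. Of 48 chromatin and transcription genes 6 had a member, with 6 exons, of which none of the 5 tested in whole cells was called.

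Regulators of microexons and of 3′ splice site recognition were measured by the reads on their splicing events, scaled per library and per effective length. In whole cells 20 of 26 regulators could be tested, and 2 rose and 6 fell (limma, adjusted p under 0.05), when 18.8% of 9660 genes rose and 18.4% fell. SRSF11, a partner of SRRM4 in microexon inclusion, fell by 0.83 on the log2 scale (SE 0.11, limma adjusted p = 4.8e-04), with 3677 and 4787 reads against 2437 and 2513. MBNL1, QKI and SRRM1 fell by 0.75, 0.66 and 0.55 on the log2 scale, and U2AF2 and RBM17 by 0.64 and 0.39. CELF1, a regulator of alternative exons, rose by 0.72 (SE 0.10, limma adjusted p = 5.6e-04), with 2140 and 2391 reads against 3953 and 3921. RBFOX3, a neuronal regulator, rose by 2.61 (SE 0.48, limma adjusted p = 0.0026) on few reads, with 7 and 4 against 51 and 30. SRRM3, SRRM4, RBFOX1, NOVA2, ESRP1 and ESRP2 had no splicing event in these tables, which does not show that they were absent.

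In the cytoplasm 2 of 18 tested regulators rose and 12 fell, when 24.6% of 7293 genes rose and 23.6% fell. SRSF11 fell by 1.10 on the log2 scale (SE 0.12, limma adjusted p = 3.0e-05), CELF1 rose by 0.51 and RBFOX3 by 2.88. Scaling by library totals moved the median of all cytoplasmic genes to -0.106, and the counts of regulators that fell to 13 there and 7 in whole cells. The host genes of the microexons called in whole cells numbered 26, of which 10 rose and 1 fell in whole cells, with a median log2 fold change of 0.15 against 0.0055 over all genes, and 8 rose and 6 fell in the cytoplasm. These levels include the reads of the microexon events themselves, and their part in the inclusion changes was not tested.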

How the data were processed

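Stranded mRNA libraries were made from whole-cell and cytoplasmic RNA of U2OS cells. The authors mapped reads to hg19 with STAR 2.5.2b, used GENCODE 19, and ran rMATS, whose version is not given in the sources used here. The deposited skipped-exon, alternative 5′ splice site and alternative 3′ splice site tables give, per event, inclusion and skipping read counts of 2 libraries joined in a cell, without normalization or replicate number, beside the effective length of each form. The skipping form has an effective length of 144 in whole cells and 73 in the cytoplasm. Other tables, and the authors' own p-values, FDR and inclusion differences in them, were not used. The expression table, made with RSEM 1.2.25 as described, holds the authors' comparison and was not used.

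For the inclusion levels and the log2 odds, inclusion and skipping reads were scaled by the effective lengths. A quasi-binomial model was fitted to the unscaled reads of every skipped-exon event of a fraction. Its Pearson dispersion was moderated by squeezeVar of limma 3.58.1 (R 4.3.3), with a trend on mean reads and a floor of 1. The prior degrees of freedom were infinite, and the dispersion used was 1.94 to 3.77 in whole cells and 1.21 to 3.60 in the cytoplasm. On simulated data in which dispersion varied between events, adjusted p-values of single events were too small. p-values were adjusted by Benjamini-Hochberg over all events, with a threshold of 0.05. Gene abundance was summed from the reads divided by effective length, with median-ratio scaling between libraries, and log2(value + 0.01) was tested with limma where a gene averaged 20 or more reads. Sequences came from GRCh37, and gene parts from GENCODE 44 lifted to it. Named exons were the 12 largest called increases and decreases in whole cells and 6 in the cytoplasm with at least 20 reads and libraries apart, called exons of the gene lists, and the 3 shortest exons. The members and lists were chosen with earlier results of these data known. Alternatives were another test, other dispersions, read minimums, ways of keeping events per exon, a length limit of 27 nt, and leaving out each library.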

Additional observations from a re-analysis of the deposited data

How the results depend on the processing

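No paired analysis was possible because the values of a cell carry no replicate number. Under limma on log2 odds, 0 microexons were called higher and 0 lower in whole cells (94 at an unadjusted p under 0.05) and 3 higher in the cytoplasm, in place of 23, 4 and 8. Of the 6 named cytoplasmic calls only SNX14 stayed, AP2M1, CSNK1G3, both SENP6 forms and FLNA were not called, and DNAJC19 and TRAPPC13 were called instead (limma, adjusted p = 0.031 and 0.036). When an exon's own spread was used where it was the larger, 21 of the 27 whole-cell calls stayed, and beside PICALM, DNAJC19 and DECR1 those of NUPL1, MAPK1IP1L and IMMT were lost (adjusted p = 0.21, 0.59 and 0.64, quasi-binomial test). The cytoplasmic count was 4 for events averaging 50 or more reads. It was also 4 when the dispersion came from groups holding 10 or more reads of the less frequent form, which was chosen after seeing the data, and CSNK1G3, SNX14 and both SENP6 forms were no longer called there. Leaving out each library gave 13 to 21 higher and 0 to 4 lower calls in whole cells and 4 to 7 higher calls in the cytoplasm. The fewest were found in whole cells without either CHERP library or, for lower calls, also without the EGFP library listed second (0, and 0 and 1 for the CHERP libraries listed first and second), and in the cytoplasm without the EGFP library listed second. Leaving out the CHERP library listed first left 1 regulator higher in whole cells, so that this count ranged from 1 to 2. The median inclusion level of microexons depended on the reads required. In whole cells with EGFP siRNA it was 0.797, or 0.721 with no filter. With CHERP siRNA it was 0.866, or 0.814 with no filter, 0.891 with at least 50 reads and 0.884 from raw reads. In the cytoplasm it was 0.839 with EGFP siRNA, or 0.629, 0.941 and 0.876 in that order, and 0.887 with CHERP siRNA, or 0.717, 0.965 and 0.915. It was higher with CHERP siRNA under each of these settings. No named exon called in the fraction concerned changed direction under the alternatives run. The other called exons kept their direction when each library was left out, and their direction with the events of an exon summed was not compared. In the cytoplasm, where neither was called, the VPS29 difference of 0.0583 became -0.0767 without the EGFP library listed second and -0.0102 without the CHERP library listed first, and the VDAC3 difference of 0.0041 became -0.00096 and -0.0051. The causes of these differences were not tested. The median microexon had 45.5 reads per library in whole cells and 21.0 in the cytoplasm.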
